A study of Homo sapiens with 18 samples.

Results

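The peaks described here are ac4C peaks that the acRIP-seq of PANC-1 cells placed on genes without a coding transcript. A peak was taken in when its gene has no coding transcript in GENCODE v29 and reached a mean of at least 0.1 FPKM (fragments scaled to gene length and library size) in the RNA-seq of control or of NAT10-KD cells. This gave 799 of the 16892 peaks of the shCtrl list, or 4.73%, on 634 genes, and 718 of the 15813 peaks of the shNAT10 list, or 4.54%, on 566 genes. Together these are 1517 peaks on 967 host genes, 233 of which carried a peak in both lists, 401 in the shCtrl list only and 333 in the shNAT10 list only. At the lower edge of the rule, AC022211.4 at 0.10 FPKM was just inside and UCA1 at 0.0981 FPKM just outside in the shCtrl list, with LINC00987 at 0.101 FPKM inside and LINC00869 at 0.0988 FPKM outside in the shNAT10 list.

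PANC-1 is an established line from a human pancreatic ductal carcinoma, and all samples came from it. Control cells (shCtrl) carried a stable lentiviral control, listed in the study as a non-targeting short hairpin RNA. NAT10-KD cells (shNAT10) carried a stable lentiviral short hairpin RNA against NAT10, the enzyme that acetylates cytidine. RNA-seq had 3 libraries per group. The acRIP-seq, in which fragmented RNA is precipitated with an antibody to ac4C, had 3 IP and 3 input libraries per group. By the study's methods the acRIP-seq used total RNA with ribosomal cDNA removed, whereas the RNA-seq used captured mRNA. FPKM and peaks therefore come from different RNA pools. The authors deposited 1 peak list per group, so peaks have no replicates, whereas the RNA-seq has them. Which of the hairpins against NAT10 was used, and whether the cultures were independent, is not given in the sources used here. The p-values then measure the spread between these libraries, which may be technical.

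NAT10 itself stood at 31.6, 27.7 and 28.6 FPKM in the shCtrl libraries and at 7.92, 8.43 and 7.90 FPKM in the shNAT10 libraries, a log2 fold change of -1.84 ± 0.08 (SE; limma adjusted p = 3.9e-05). The exact two-sided permutation test on these 6 values gave p = 0.10, the smallest that 3 against 3 libraries allow. The keratins of simple epithelia were present in every library, with KRT8 between 711 and 2010 FPKM, KRT18 between 595 and 1350 FPKM and KRT19 between 159 and 373 FPKM. Depth recovered from the steps of the FPKM values lay between 15831720 and 23521762 reads per RNA-seq library. As these are bulk samples, fewer cells that make an RNA and less of it per cell cannot be told apart.

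N4-acetylcytidine is a cytidine base carrying an acetyl group, known above all from ribosomal and transfer RNA and described also in messenger RNA. Long non-coding RNAs are transcripts without a recognised reading frame: lincRNAs lie between genes, antisense RNAs lie across a gene on the opposite strand, and host transcripts carry small nucleolar RNAs or microRNAs. Pseudogenes are copies of genes that no longer encode a full protein, and processed pseudogenes are intron-less copies made from messenger RNA, so that their sequence can be nearly that of the parent mRNA.

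To show what such peaks look like, the shared peak with the highest fold enrichment of each gene type is printed, followed by a pair of peaks whose exon bases were identical in both lists. Peaks over 300 bases are not shown. All are on GRCh38, read 5′ to 3′ on the strand of the host gene from GENCODE v29 transcripts, and capitals mark the first CNNCNNCNNCNN, cytidines spaced as in a repeated CNN triplet, where there is one. The peak of AC108010.1 is spliced from 4 blocks, and the other peaks are single blocks.
BAIAP2-DT, chr17:81032232-81032500, minus strand: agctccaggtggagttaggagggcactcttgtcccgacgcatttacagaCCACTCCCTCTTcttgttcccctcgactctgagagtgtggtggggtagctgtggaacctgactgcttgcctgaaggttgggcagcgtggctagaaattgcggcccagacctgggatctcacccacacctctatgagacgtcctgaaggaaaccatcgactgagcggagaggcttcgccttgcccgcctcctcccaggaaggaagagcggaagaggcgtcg
STARD4-AS1, chr5:111734178-111734417, plus strand: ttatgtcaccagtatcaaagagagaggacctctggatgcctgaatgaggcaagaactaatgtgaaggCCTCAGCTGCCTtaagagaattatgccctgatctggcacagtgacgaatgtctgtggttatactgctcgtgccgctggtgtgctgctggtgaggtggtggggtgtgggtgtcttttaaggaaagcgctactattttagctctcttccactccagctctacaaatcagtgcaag
AC108010.1, chr7:128580093-128609490, plus strand: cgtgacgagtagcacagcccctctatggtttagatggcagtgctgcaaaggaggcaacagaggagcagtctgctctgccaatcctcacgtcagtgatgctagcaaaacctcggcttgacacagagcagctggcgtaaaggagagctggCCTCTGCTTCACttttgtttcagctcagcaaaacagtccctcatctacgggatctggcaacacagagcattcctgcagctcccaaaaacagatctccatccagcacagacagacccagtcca
DGKZP1, chr13:43969618-43969886, plus strand: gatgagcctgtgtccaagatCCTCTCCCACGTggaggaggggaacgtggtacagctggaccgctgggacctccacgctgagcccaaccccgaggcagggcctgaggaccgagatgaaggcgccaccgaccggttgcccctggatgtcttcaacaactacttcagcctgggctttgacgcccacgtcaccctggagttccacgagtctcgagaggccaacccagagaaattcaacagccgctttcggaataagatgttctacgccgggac
AL390728.4, chr1:247189941-247190181, minus strand: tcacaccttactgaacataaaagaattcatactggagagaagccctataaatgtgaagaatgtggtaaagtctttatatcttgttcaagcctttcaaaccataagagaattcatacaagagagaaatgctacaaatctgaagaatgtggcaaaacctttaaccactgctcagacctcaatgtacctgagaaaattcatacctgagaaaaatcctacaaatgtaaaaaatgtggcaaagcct
SCARNA13, chr14:95533355-95533547, minus strand: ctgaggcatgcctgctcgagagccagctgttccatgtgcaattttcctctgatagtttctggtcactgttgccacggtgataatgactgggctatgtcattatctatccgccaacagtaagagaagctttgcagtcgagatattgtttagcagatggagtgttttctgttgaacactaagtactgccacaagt
CAP1P2, chr10:43604843-43605113, minus strand: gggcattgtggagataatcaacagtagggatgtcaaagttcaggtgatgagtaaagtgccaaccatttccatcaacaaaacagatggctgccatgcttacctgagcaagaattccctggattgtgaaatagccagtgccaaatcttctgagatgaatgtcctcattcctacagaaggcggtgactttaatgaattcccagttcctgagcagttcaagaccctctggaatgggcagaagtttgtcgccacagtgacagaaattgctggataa
AC138392.1, chr1:77811217-77811425, minus strand: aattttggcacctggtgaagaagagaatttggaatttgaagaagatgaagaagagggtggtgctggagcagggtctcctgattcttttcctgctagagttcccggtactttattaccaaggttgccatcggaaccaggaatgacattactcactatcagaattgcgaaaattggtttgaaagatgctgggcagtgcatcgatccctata

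The peak of BAIAP2-DT, a lincRNA, had a fold enrichment (IP over input) of 832 in the shCtrl list and overlapped a shNAT10 peak of 34.1. For STARD4-AS1, an antisense RNA, the values were 2710 in the shNAT10 list and 1910 at its overlapping shCtrl peak, although the gene stood at only 0.276 FPKM in control cells and 0.225 FPKM in NAT10-KD cells. That shCtrl peak lies across an NREP peak of 1630 on the opposite strand, and NREP had a mean of 7.075 FPKM. AC108010.1, of the other lncRNA types, had 1750 in the shNAT10 list against 10.8 in the shCtrl list. Of the 31-base words of its printed peak, 53.75% also occur in coding transcripts. In DGKZP1, a processed pseudogene, every 31-base word of the printed peak also occurs in a coding transcript, and the fold enrichment was 234 in the shNAT10 list and 6.69 in the shCtrl list. AL390728.4, an unprocessed pseudogene, had 2030 in the shNAT10 list and 233 in the shCtrl list. SCARNA13, a small Cajal body RNA that lies across an exon of GLRX5, was the steadiest of the set, with the same 193 bases at 27.4 in the shCtrl list and 27.1 in the shNAT10 list. CAP1P2 had 100 and 155 and AC138392.1 89.7 and 175 over identical bases, and with 1 list per group neither difference can be tested. Both are processed pseudogenes, with 32.4% and 82.7% of the 31-base words of the printed peak in coding transcripts. Among peaks of at least 200 bases, cut to their middle 200, the CNNCNNCNNCNN pattern was about as frequent as outside peaks. These were 398 of the 799 shCtrl and 398 of the 718 shNAT10 peaks, and shorter peaks were left out. The pattern was in 44.5% (95% Wilson interval 39.7 to 49.4) of these shCtrl and 48.2% (43.4 to 53.1) of these shNAT10 windows. In 10998 tiles of 200 bases from exons of the host genes of both lists, outside peaks, the share was 46.4% (45.5 to 47.3). CCG, a shorter pattern that can lie inside the first, was in 59.3% (54.4 to 64.0) of the same shCtrl windows and 56.3% (51.4 to 61.1) of the shNAT10 windows, beside 53.5% (52.5 to 54.4) of the tiles. The share of the tiles lay below the shCtrl interval, although the intervals met, and inside the shNAT10 interval. Coding-gene peaks held CCG in 58.3% and 57.9%. Median GC content was 48% in the shCtrl windows and 47% in the tiles. Only the strand of the gene was searched.

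Antisense genes held the most peaks. Of the shCtrl peaks, 276 were on antisense genes, 181 on processed pseudogenes, 144 on other lncRNA types (processed transcripts, TEC, sense intronic and the like), 105 on other pseudogenes, 87 on lincRNAs and 6 on small RNA genes. The shNAT10 list had 226, 165, 128, 104, 87 and 8 in the same order. Most hosts carried a single peak, 520 of 634 in the shCtrl list and 464 of 566 in the shNAT10 list, while 31 and 29 hosts carried 3 or more. The greatest numbers were 9 and 10 peaks, both on NEAT1.

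Many of these peaks lie on sequence that a coding gene also holds. In the shCtrl list 198 peaks, or 24.8%, had at least 50% of their 31-base words in a coding transcript, and a further 250 peaks, or 31.3%, touched an exon of a coding gene on either strand. That left 351 peaks, or 43.9%, with neither. In the shNAT10 list the numbers were 181, 201 and 336. The types differed widely in this respect: 96.6% of shCtrl and 88.5% of shNAT10 lincRNA peaks were on sequence of neither kind, against 27.5% and 31% of antisense peaks and 21% and 23.6% of processed pseudogene peaks.

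**Figure D1:**
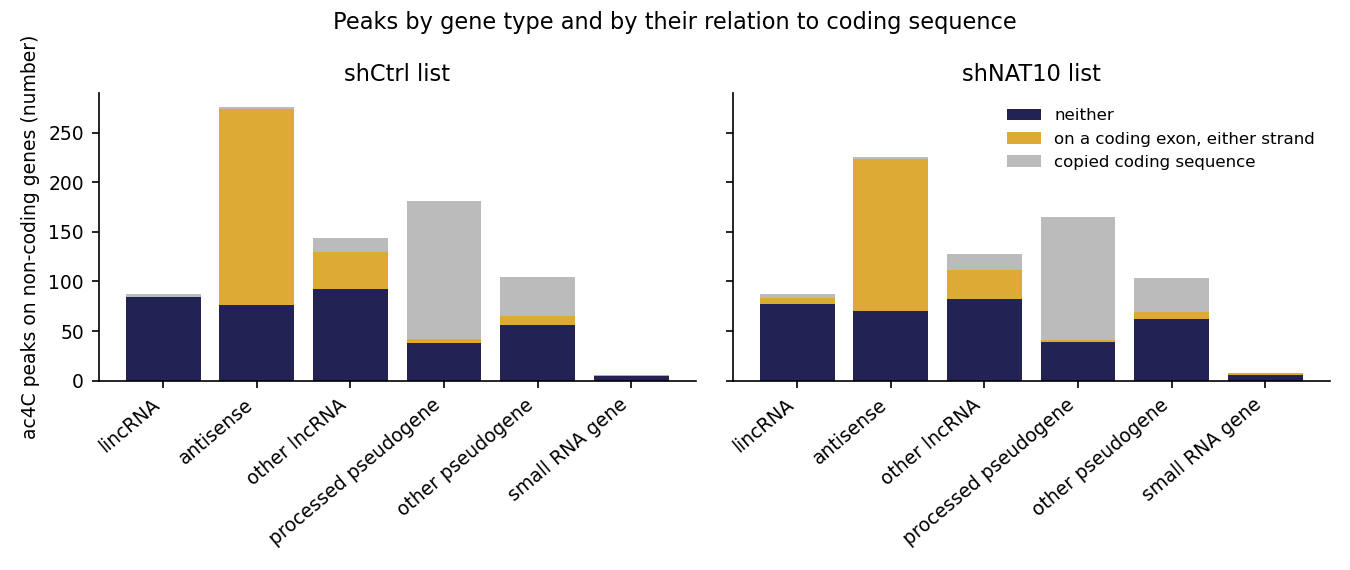
Number of ac4C peaks on non-coding genes by gene type in the shCtrl and the shNAT10 list, with each bar divided into peaks with at least 50% of their words in a coding transcript, other peaks that touch a coding exon on either strand, and peaks with neither. Coding exons dominate the antisense bar (198 of 276 shCtrl peaks) and copied sequence the processed pseudogene bar (139 of 181).

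Most antisense peaks faced a peak of the gene on the other strand. Of the 276 shCtrl antisense peaks, 200 lay across an exon of a coding gene on the opposite strand, and 182 of these 200, or 91.0%, faced a peak of that strand in the same list. In the shNAT10 list 141 of 156 did, or 90.4%. Facing peaks were also usual on coding genes: of the few coding-gene peaks that lay across an exon of another coding gene on the opposite strand, 399 in the shCtrl and 394 in the shNAT10 list, 80.5% and 77.7% faced a peak there. Antisense peaks lay across such an exon more often, in 72.5% and 69.0% against 2.76% and 2.92% of coding-gene peaks, and antisense genes are defined by lying across a gene. Over all gene types, 227 shCtrl and 177 shNAT10 peaks faced such a peak. Where several peaks faced the same peak, any with equal values was taken as the partner, and otherwise that with the most shared bases. This choice favours agreement within pairs. The facing peak was within 2-fold in fold enrichment for 157 of 227 and 121 of 177 pairs. Pearson's r of log2 fold enrichment was 0.87 and 0.86 over these pairs, a description across peaks that share their reads' position.

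In 47 shCtrl and 30 shNAT10 pairs the fold enrichment and the p-value were the same on both strands to every deposited digit. In the shCtrl list, 2 coding-gene peaks drawn at random, with return, had equal values in 0.0212% of cases. That rate is over all positions, and the rate among coding-gene peaks that face each other was not counted. MBNL1-AS1 is one such gene: its shCtrl peak, at a fold enrichment of 1960, had the values of the facing peak on MBNL1, a splicing regulator, while the RNA-seq gave MBNL1-AS1 a mean of 0.148 FPKM and MBNL1 29.2 FPKM. C5orf66, one of the 2 antisense hosts with the most peaks, had 3 shCtrl and 5 shNAT10 peaks, and all of them faced peaks of H2AFY, which encodes the histone variant macroH2A. Its shCtrl peaks at 1230 and 1020 had the same values as the facing H2AFY peaks, and the genes stood at 0.240 and 18.3 FPKM. SH3BP5-AS1, the other, had 4 peaks in each list, of which 2 shCtrl and all 4 shNAT10 peaks faced a peak of SH3BP5, which encodes a protein that binds SH3 domains. CTC-338M12.4 reached 3870 in the shNAT10 list with the same values as the facing TRIM52 peak, and here the non-coding gene had the higher level, 7.41 against 5.24 FPKM.

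The coding gene had the higher RNA-seq level in 201 of 227 shCtrl and 158 of 177 shNAT10 pairs, with medians of 15.4 and 15.9 FPKM against 0.304 and 0.335 FPKM for the non-coding host. In the RNA-seq, which was stranded, 173 antisense genes that an opposite coding gene covers over at least 90% of their exon length had a median of 0.00882 times the FPKM of that gene. Reads of both strands behind a peak cannot be told apart in the lists, so the strand of a facing peak is uncertain. Without the peaks that face a coding-gene peak, 572 shCtrl and 541 shNAT10 peaks remained.

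**Figure D2:**
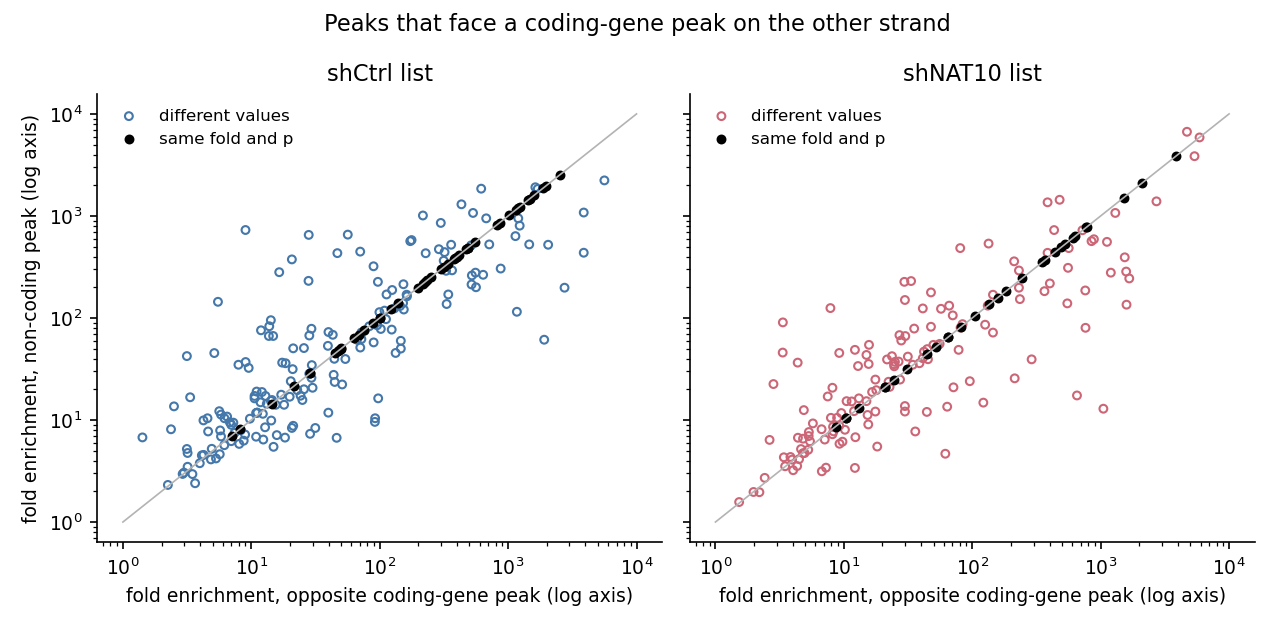
Fold enrichment, IP over input, for each peak on a non-coding gene against that of the coding-gene peak facing it on the opposite strand, in the shCtrl list (227 pairs) and the shNAT10 list (177 pairs), both axes on a log scale, with a grey line of equal values. Filled points are the 47 and 30 pairs whose fold enrichment and p-value were the same, and they lie on the line by construction. Where several peaks faced the same peak, any with equal values was taken as the partner, which favours agreement.

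The median fold enrichment was 46.8 (quartiles 10.8 and 295) over the shCtrl peaks and 42.8 (12.2 and 299) over the shNAT10 peaks, beside 41.9 and 38.3 for peaks on coding genes. Processed pseudogenes had the lowest medians of the larger types, 11.5 and 13.9. LincRNAs had the highest, 180 and 124, and antisense genes, other lncRNA types and other pseudogenes lay between, at 77.5, 81.1 and 66.6 in the shCtrl list and 69.2, 64.7 and 62.8 in the shNAT10 list. Among peaks on sequence of neither kind the median was 144 in the shCtrl and 164 in the shNAT10 list, and there antisense genes led with 288 and 367. No test applies, as each list is 1 pooled sample and the reads behind each ratio are not given. Some pairs of fold enrichment and log10 p recurred on unrelated genes, as 75.7 and -12.9 at LIX1L-AS1 and AP003108.3 in the shCtrl list. Over peaks of coding genes the commonest pair of values was on 66 shCtrl and 56 shNAT10 peaks. Whether the highest ratios rest on few input reads was not tested, so the order of types is an order of ratios only.

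**Figure D3:**
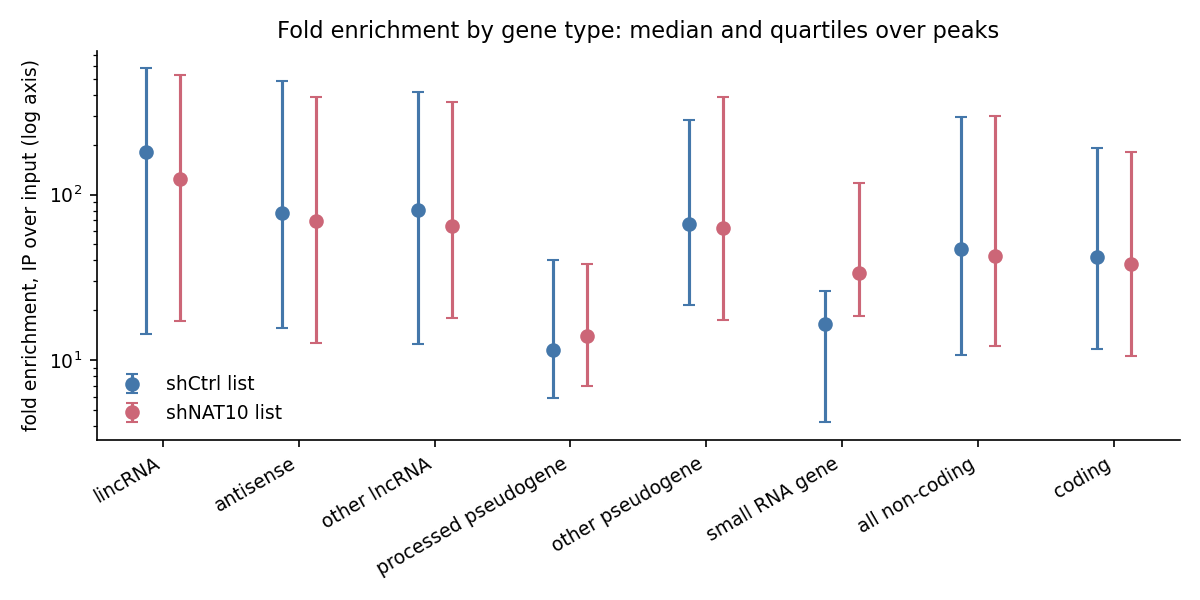
Median fold enrichment, IP over input (points), with the quartiles over peaks (bars) for each gene type, all non-coding genes and coding genes in both lists, on a log axis. Processed pseudogenes lie lowest among types with over 10 peaks, at 11.5 and 13.9, and lincRNAs highest, at 180 and 124.

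The highest fold enrichments on hosts of at least 1 FPKM were mostly on pseudogenes and little-studied lncRNAs. In the shCtrl list the 5 highest values on hosts of at least 1 FPKM were 7060 on AL390728.4, 5560 on FAHD2CP, 2920 on SDHAP1 and 2740 on both LINC01128 and DPY19L2P2, which also had the same log10 p of -510. FAHD2CP, SDHAP1 and DPY19L2P2 are copies of genes for a fumarylacetoacetate hydrolase domain protein, a succinate dehydrogenase subunit and a DPY19-like protein. In the shNAT10 list they were CTC-338M12.4 at 3870, GTF2IP20 at 3750, AC083843.2 at 2750, AL139393.2 at 2490 and AL390719.1 at 2290. Few of these were found at like strength in the other list. AL390728.4 had 7060 and 757 at its overlapping peaks, AL139393.2 had 738 in the shCtrl list, and 4 of the 5 shCtrl hosts and 4 of the 5 shNAT10 hosts had no peak of the other list over the named one.

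By p-value AL390728.4 was again among the 5 leading shCtrl hosts, and the others were not among the 5 highest fold enrichments of either list. MT-RNR2 and MT-RNR1, the large and small ribosomal RNAs of mitochondria, had log10 p of -45800 and -3370 in the shCtrl list and -73000 and -8490 in the shNAT10 list. MTND2P28, a nuclear copy of the mitochondrial ND2 gene with 57.4% of its words in MT-ND2, had -6160 and -3840, and EEF1A1P5, a copy of the elongation factor EEF1A1, -1990 and -2140 at its best peak. AL390728.4 had -1510 in the shCtrl list, and RPL13AP5, a copy of ribosomal protein L13a, had -4400 in the shNAT10 list.

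A minority of peaks was found in both lists. An overlap of at least 1 exon base on the same strand was seen for 178 of 799 shCtrl peaks, or 22.3% (95% Wilson interval 19.5 to 25.3), and for 180 of 718 shNAT10 peaks, or 25.1% (22.0 to 28.4). Peaks on coding genes overlapped in 25.6% and 27.4%. The difference was -3.32 percentage points (95% Newcombe interval -6.16 to -0.222) for the shCtrl list and -2.32 (-5.45 to 1.06) for the shNAT10 list, and it did not hold in every setting: with a reciprocal overlap of 50% it was 1.82 (-0.497 to 4.47) in the shCtrl list. Intervals cover counting error only.

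The types went in opposite directions. Processed pseudogene peaks overlapped in 35.9% (29.3 to 43.1) and 39.4% (32.3 to 47.0), which is 10.3 (3.65 to 17.6) and 12 (4.83 to 19.7) percentage points above coding-gene peaks. The 38 shCtrl and 39 shNAT10 processed pseudogene peaks on sequence of neither kind overlapped in 21.1% (11.1 to 36.3) and 23.1% (12.6 to 38.3). These shares lie below those of coding-gene peaks, which fall within both intervals, and the shCtrl interval also holds 35.9%. Median host levels were 0.812 and 0.982 FPKM for these peaks, against 3.72 and 2.99 FPKM over all processed pseudogene peaks. Whether the overlap went with copied sequence or with host level was not tested. LincRNA peaks overlapped in 11.5% (6.36 to 19.9) and 10.3% (5.54 to 18.5), with differences from coding-gene peaks of -14.1 (-19.3 to -5.69) and -17.1 points (-21.9 to -8.85). Other pseudogenes were also lower, at 15.2% (9.60 to 23.3) and 16.3% (10.5 to 24.6). Among peaks on sequence of neither kind, 14.8% of 351 and 16.1% of 336 overlapped, with differences of -10.8 points (-14.2 to -6.62) and -11.3 points (-14.9 to -6.95) from coding-gene peaks. Exact agreement was rare: 16 peaks had identical exon bases in both lists, 11 of them on processed pseudogenes. The level of the host gene also moved with the type, with a median over peaks of 3.72 FPKM for processed pseudogenes and 2.04 FPKM for lincRNAs in the shCtrl list, and its part in the overlap was not tested.

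**Figure D4:**
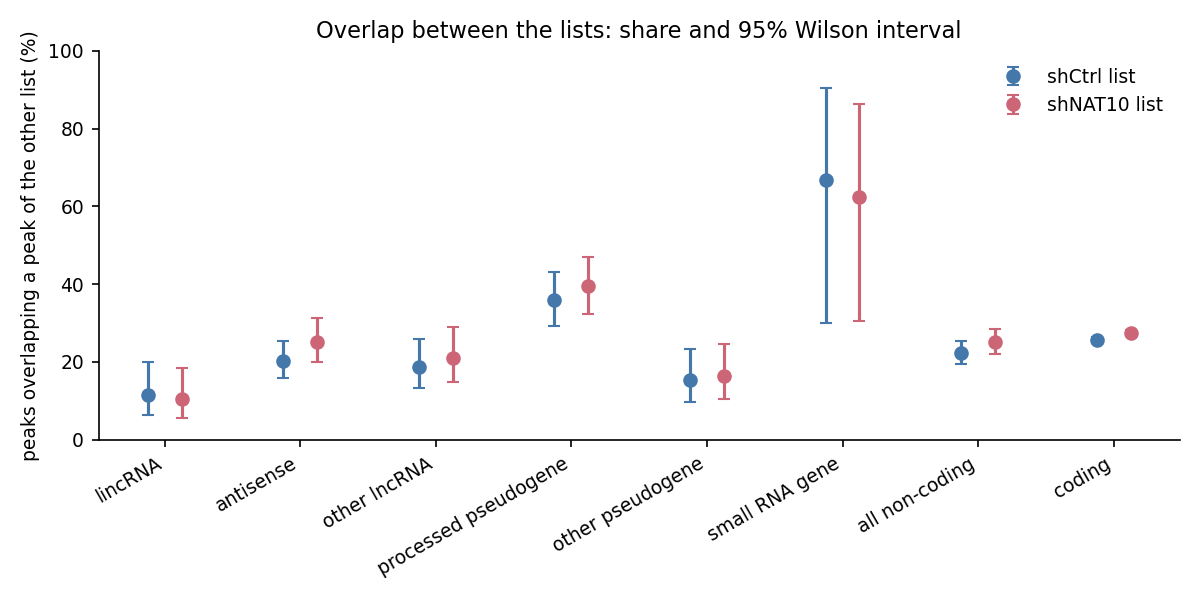
Share of peaks that overlap a peak of the other list by at least 1 exon base on the same strand, in percent, with 95% Wilson intervals, for each gene type, all non-coding genes and coding genes. Processed pseudogenes lie above coding genes in both lists, at 35.9% and 39.4%, and lincRNAs below, at 11.5% and 10.3%; the small RNA genes rest on 6 and 8 peaks.

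Non-coding genes carried peaks less often than coding genes, also within a class of like level and length. Of 8177 non-coding genes at 0.1 FPKM or more, 11.8% hosted a peak in either list. In the shCtrl list the share rose with the level of the gene, from 5.26% of those between 0.1 and 1 FPKM to 10.6% between 1 and 5, 23.4% between 5 and 20 and 51.4% at 20 or more. For genes between 1 and 5 FPKM with 1000 to 3000 exon bases, 65 of 457 non-coding genes, or 14.2%, and 115 of 533 coding genes, or 21.6%, carried a shCtrl peak, a difference of -7.35 percentage points (Newcombe -12.1 to -2.55). The shNAT10 list gave 10.9% and 20.3%, a difference of -9.32 points (-13.8 to -4.81). Coding genes were still longer within this class, with a median of 2268 exon bases against 1791. LincRNAs were lower in both lists, at 10% and 11.8%, while for other pseudogenes, at 23.2% and 14.3%, the interval of the difference took in 0 (-8.20 to 14.6 and -13.7 to 5.91).

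All expressed members of the list drawn up for nuclear and chromatin lncRNAs carried a peak, 9 of 9. Their exons are long, with a median of 13560 bases. That list also took in NORAD and OIP5-AS1, the latter a cytoplasmic lncRNA. A peak was carried by 13 of 26 small nucleolar RNA hosts, 9 of 21 microRNA hosts and 3 of 17 cancer lncRNAs. Of the list of structured small RNAs 2 of 5 carried a peak, both of them mitochondrial ribosomal RNAs (MT-RNR1 and MT-RNR2). Of the ribosomal protein pseudogenes 58 of 245 did. In the RNA-seq, 21.2% of all genes tested were lower and 20.8% higher in NAT10-KD cells at a limma adjusted p under 0.05. By the same rule 1 gene of the nuclear and chromatin list was lower and 3 were higher of 8 tested. Of the small nucleolar RNA hosts 2 were lower and 2 higher of 12, and of the microRNA hosts 1 and 1 of 5. Of 2 cancer lncRNAs 1 was lower. MT-RNR1 and MT-RNR2, the 2 tested on the list of structured small RNAs, were both lower, 1 of them after quantile normalization. With so few members tested, these shares cannot be set apart from those of all genes.

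NEAT1, the scaffold of paraspeckles, had many but weak peaks. Its 9 shCtrl peaks ranged from 1.69 to 5.42 and its 10 shNAT10 peaks from 1.58 to 8 in fold enrichment. MALAT1, a lncRNA of nuclear speckles, had a pair of nearly coincident shCtrl peaks at 1.32 and 1.38 and no shNAT10 peak. NORAD, which binds Pumilio proteins, had 5 shCtrl peaks of 1.55 to 250 and 4 shNAT10 peaks of 2.05 to 1650, and TUG1 had 6 peaks in each list, of 4.57 to 45.9 and of 3.44 to 36.6. MEG3, an imprinted lncRNA, had no shCtrl peak and 2 shNAT10 peaks, at 9.67 and 108. KCNQ1OT1 likewise had 2 shNAT10 peaks only, at 171 and 365. FTX and JPX, lncRNAs of the X inactivation centre, had a shNAT10 peak each on opposite strands of nearly the same bases, with the same fold enrichment of 118 and log10 p of -21.1.

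Among the hosts of small nucleolar RNAs, GAS5 had the most peaks. Its 4 shCtrl peaks ranged from 3.31 to 113 and its 5 shNAT10 peaks from 4.41 to 181, and 3 in each list overlapped. The overlapping peaks did not keep their values: the shCtrl peak at 113 met a shNAT10 peak of 4.41, and that at 11.3 one of 50. SNHG16 went from 8.15 to 36.0 at its overlapping peak, but that peak also faces a coding-gene peak on the opposite strand. SNHG5 had shCtrl peaks of 7.49 and 2.21 and a shNAT10 peak of 4.88 elsewhere, SNHG6 a shCtrl peak of 2.03 and a shNAT10 peak of 39.1, and ZFAS1 peaks of 29 and 3.79 at different places. DANCR had peaks in the shNAT10 list only, at 36.5 and 20.9.

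Hosts of microRNAs and lncRNAs named in cancer gave few shared peaks. H19 had 3 in each list, of 8.41 to 54 and of 8.70 to 37.1, and it was expressed at only 0.240 to 1.07 FPKM. MIR222HG at 1160, MIR3142HG at 872 and MIR600HG at 767 and 75.7 had peaks in the shCtrl list alone, and MIR100HG at 242 in the shNAT10 list alone. MIR4435-2HG had shCtrl peaks of 5.04 and 45.5 and a shNAT10 peak of 599. CYTOR, a near-identical paralogue of MIR4435-2HG with which it may share reads, had 1 shCtrl peak at 2170 and none in the shNAT10 list. LUCAT1 had 980 and 908 at different places, and HCG18 4 shCtrl peaks of 11.8 to 327 and 1 shNAT10 peak of 55.7.

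Where a processed pseudogene peak was on copied sequence, the parent gene mostly had a peak as well. Of their 139 shCtrl peaks with copied sequence, 129, or 92.8%, matched best a coding gene with a peak of its own in that list, and in the shNAT10 list 109 of 124, or 87.9%, did. The parent had the higher level in 121 of 139 and 104 of 124, with median levels of 103 and 79.3 FPKM against 5.86 and 4.78 FPKM for the pseudogene. Fold enrichment was lower where the sequence was copied, with medians of 10.8 and 13.9 against 46.8 and 27.8 for the other processed pseudogene peaks. RPL21 was the parent of most hosts, 6 in each list. Reads of such pairs can be split between the copies, and the rule used for them is not given in the sources used here, so the levels and peaks of these pseudogenes are uncertain.

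The most abundant hosts of this kind were EEF1A1P5 and RPL39P3. EEF1A1P5 had 2 shCtrl peaks of 5.29 and 2.64 and 4 shNAT10 peaks of 1.79 to 6.56. RPL39P3 had the same 156 bases in both lists, at 18.1 and 56.2, with every 31-base word in RPL39. Its level was 949 to 1228 FPKM, whereas RPL39 itself stood at 3.19 to 5.42 FPKM. RPL3P4 had 487 and 16.7 over identical bases, RPL13AP5 5.92 and 28.6 and RPL9P9 7.14 and 16.2, while RPL22P1 at 5.66 and RPS27AP16 at 2.09 and 2.32 had shCtrl peaks only. HSP90AA2P, a copy of the chaperone HSP90AA1, had 2 shCtrl and 3 shNAT10 peaks of 11.5 to 190. PLEKHM1P1, with AL390728.4 the other pseudogene with the most peaks, had 2 shCtrl peaks of 976 and 2600 and 4 shNAT10 peaks of 6.27 to 1030.

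The small RNA genes held 14 peaks in all, and the mitochondrial ribosomal RNAs stood out among them. The peak over MT-RNR2, of 1529 bases in the shCtrl list, went from 65.1 to 278, and that over MT-RNR1 from 22.4 to 63.6. Over the same comparison the RNA-seq gave MT-RNR2 8672, 9271 and 9283 FPKM in the shCtrl and 5284, 5727 and 5865 FPKM in the shNAT10 libraries. These levels are of captured mRNA, whereas the peaks are of total RNA with ribosomal cDNA removed. All shNAT10 values lay below all shCtrl values, and the log2 fold change was -0.69 ± 0.08 (SE; limma adjusted p = 6.9e-04). After quantile normalization it was -0.16, with a limma adjusted p of 0.078. MT-RNR1 lay between 1460 and 1716 FPKM and between 1056 and 1144 FPKM, with a log2 fold change of -0.53 ± 0.08 (SE; limma adjusted p = 0.0025). RN7SL5P, a pseudogene of the signal recognition particle RNA, was the weakest shared peak at 1.69 and 2.75, and SNORA31, a small nucleolar RNA, overlapped a peak of 4.38 of the shCtrl list at 23.8 in the shNAT10 list.

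Host genes as a whole had a median change near 0 in the RNA-seq. Of the 967 hosts, 438 passed the filter of 1 FPKM in at least 3 libraries. Of these, 8 were lower (1.83%) and 12 higher (2.74%) in NAT10-KD cells at a limma adjusted p under 0.05 and a log2 fold change beyond 1, beside 3.57% lower and 2.91% higher of all 12982 genes tested. At the adjusted p alone 49 were lower and 71 higher, beside 21.2% and 20.8% of all genes. Scaled to TPM, which moved the median of all genes by 0.11 on the log2 scale, these became 35 and 91. The numbers at the adjusted p alone also turned on single libraries. Those lower were 79 without shCtrl replicate 1, 29 without shCtrl replicate 3, and 29, 31 and 27 without shNAT10 replicates 1, 2 and 3, and those higher were 43 without shCtrl replicate 3 and 39 and 41 without shNAT10 replicates 2 and 3. With the filter at 0.1 FPKM, which 918 hosts passed, 14 were lower and 22 higher under the full rule, beside 3.68% and 2.79% of all genes, and 47 and 75 at the adjusted p alone, beside 14.2% and 13.4%. The median log2 fold change of the 438 hosts was -0.01, as over all genes, and it was -0.07 for hosts with peaks in both lists, 0.01 for those with shCtrl peaks only and 0.01 for those with shNAT10 peaks only. The 229 tested hosts with a peak on sequence of neither kind were more often higher than lower, with 45 higher (19.7%) and 20 lower (8.73%) at the adjusted p alone, 132 positive and 97 negative changes and a median of 0.07. Their share of higher genes was close to that of all genes and their share of lower genes was below it.

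By type, 22 processed pseudogenes were lower (15.6%) and 14 higher (9.93%) of 141 tested at the adjusted p alone, with a median of -0.19. Over all genes tested the shares were 21.2% and 20.8%. As TPM, a scaling that moved these pseudogenes and all genes alike, 16 were lower and 21 higher, beside 2075 and 3355 of all 12982 genes. Antisense hosts had 6 lower (6.67%) and 20 higher (22.2%) of 90, and other lncRNA types 6 (9.38%) and 14 (21.9%) of 64. Other pseudogenes had 6 (6.9%) and 13 (14.9%) of 87, and lincRNAs 7 (13.5%) and 10 (19.2%) of 52. The shares called higher among antisense hosts and other lncRNA types were near that of all genes. Of the ribosomal protein pseudogenes 11 were lower and 2 higher of 46, and 9 and 2 as TPM.

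The 5 largest falls among called hosts whose groups did not overlap were on copies of coding genes, an antisense RNA and MEG3. HNRNPA1P7, a copy of the splicing factor gene HNRNPA1, stood at 25.9, 26.1 and 29.4 FPKM in shCtrl and 9.12, 8.87 and 8.46 FPKM in shNAT10 libraries, a log2 fold change of -1.61 ± 0.08 (SE; limma adjusted p = 5.1e-05). HNRNPA1P10 fell likewise, from 15.2, 20.5 and 15.6 FPKM to 4.33, 6.36 and 5.64 FPKM (log2 fold change -1.64 ± 0.17, SE; limma adjusted p = 5.4e-04). HNRNPA1 itself went from 67, 80 and 71.3 FPKM to 31.5, 31.2 and 32.7 FPKM. A peak of HNRNPA1P7 shares 100% and the peak of HNRNPA1P10 85.8% of its words with it. Over this fall, the overlapping peaks of HNRNPA1P7 were at 2.95 in the shCtrl and 11.1 in the shNAT10 list. MEG3 went from 22.7, 18.6 and 20.4 FPKM to 7.89, 8.77 and 8.67 FPKM, with a log2 fold change of -1.27 ± 0.09 (SE; limma adjusted p = 1.7e-04). It is 1 of 333 hosts with peaks in the shNAT10 list alone. Of these 128 were tested, and 3 were lower and 4 higher under the full rule. RRN3P1 (-1.28 ± 0.15, SE) and AP005329.1 (-1.37 ± 0.23, SE) complete the set, and with a pseudocount of 1 their log2 fold changes were -0.87 and -0.80, short of the limit of 1. AP005329.1 lies opposite MYL12A, and its peak was at 10.8 and 9.26. The peak at 9.26 faced a MYL12A peak at 5.74, so its strand is uncertain.

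The 5 largest rises, picked by the same rule, were 4 antisense RNAs and a lincRNA, at levels of at most 7.02 FPKM. AC009779.2 rose from 1.64, 2.64 and 1.89 FPKM to 5.25, 7.02 and 6.98 FPKM, a log2 fold change of 1.61 ± 0.20 (SE; limma adjusted p = 9.8e-04), and had a peak of 393 in the shNAT10 list only. AL928654.1 rose by 1.45 ± 0.22, LINC00346 by 1.35 ± 0.25, AC083798.2 by 1.30 ± 0.27 and AC068888.1 by 1.27 ± 0.13 on the log2 scale (SE; limma adjusted p of 0.0083 or less). With a pseudocount of 1, which weighs low levels less, AL928654.1, LINC00346 and AC083798.2 were at 0.79, 0.62 and 0.75 and no longer beyond the limit of 1. LINC00346 and AC083798.2 had their peaks in the shCtrl list only and AL928654.1 in the shNAT10 list only, while AC068888.1 had peaks in both. A shCtrl peak of AC083798.2 at 17.7 faced a KPNA1 peak at 17.1. The shNAT10 peaks of AC068888.1 at 6.56 and 4.73 faced an EIF4B peak at 4.81, so the strand of these peaks is uncertain.

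Of the lncRNAs with known roles, NORAD was at 33.4, 23.7 and 31.5 FPKM in shCtrl and 43.3, 44.5 and 48.2 FPKM in shNAT10 libraries (log2 fold change 0.63 ± 0.13, SE; limma adjusted p = 0.0085). OIP5-AS1, a cytoplasmic lncRNA, was higher by 0.53 ± 0.10 and MIR100HG by 0.60 ± 0.11, whereas CYTOR was lower by 0.53 on the log2 scale, from 11.6, 13.1 and 12.5 FPKM to 8.36, 8.5 and 8.77 FPKM (limma adjusted p = 0.0017). SNHG16 (-0.55 ± 0.11, SE) and SNHG5 (-0.52 ± 0.13, SE) were lower too. SNHG5 did not pass without shCtrl replicate 3 (adjusted p = 0.055 by limma) and without shNAT10 replicates 1 (0.073) and 3 (0.064). MALAT1 did not pass the test, at 119.7, 98.6 and 131 FPKM against 94.7, 98.6 and 109 FPKM (log2 fold change -0.20 ± 0.11, SE; limma adjusted p = 0.19); without shCtrl replicate 2 its adjusted p was 0.0076. NEAT1, at 39.5, 34.8 and 41.1 FPKM against 39.0, 48.1 and 49.2 FPKM, did not pass either (0.24 ± 0.11, SE; limma adjusted p = 0.13), and GAS5 at 30.9 to 45.8 against 30.8 to 36.5 FPKM and TUG1 at 28.6 to 38.1 against 38.3 to 40 FPKM did not pass. TUG1 passed without shCtrl replicate 1 (limma adjusted p = 0.031), as GAS5 did (0.049).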

How the data were processed

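RNA-seq (poly-A capture, stranded kit) and acRIP-seq (total RNA, IP with an ac4C antibody, with input) were made from PANC-1 cells. Each group had 3 libraries of each kind, grouped by their labels. The submitters' processing notes name HISAT2 2, HTSeq 0.11.0, DESeq2 1.22.2 and hg38. Peak caller, its thresholds and the annotation are not given in the sources used here. The authors deposited FPKM values per gene and RNA-seq library. For acRIP-seq the deposited lists, 1 per group from pooled libraries, give each peak's fold enrichment as a ratio of IP over input, its p-value, and log10 p and log10 FDR, treated here as a score without a fixed range. The depth of the acRIP-seq libraries is unknown.

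GENCODE v29 (GRCh38) gave gene types, exons and spliced sequences. Members and lists were chosen with earlier results of these data known. Named were hosts on 6 gene lists (at most 6 a list by FPKM), the 2 hosts with most peaks per type, and the 5 highest folds and lowest p-values per list on hosts of at least 1 FPKM. The 5 largest rises and falls among called hosts whose groups do not overlap were also named. KCNQ1OT1, FTX, JPX, MBNL1-AS1, RN7SL5P, SNORA31 and the genes of the printed sequences are named besides.

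For expression, log2(FPKM + 0.1) entered limma 3.58.1 (R 4.3.3) with a mean-variance trend, for 12982 genes with at least 1 FPKM in at least 3 libraries and Benjamini-Hochberg adjustment; fold changes on this scale understate changes of low genes. Whole reads were recovered for 99.6% of values above 0, within 0.02 reads, by searching a length for each gene, and entered limma's voom only. Python 3.11.15 with pandas 2.3.3 was used for the rest. The steps were tested on simulated data. Alternatives covered pseudocount, filters, scaling, the replicate block, left-out libraries, peak thresholds, overlap rules and word length. No column lacked a sample or group (0).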

Additional observations from a re-analysis of the deposited data

Results flagged for a closer look

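Data outside the comparisons also held peaks. On non-coding genes under 0.1 FPKM in both groups there were 333 peaks on 269 genes in the shCtrl list and 340 peaks on 292 genes in the shNAT10 list, with median fold enrichments of 173 and 122 (121.5). Of these, 125 and 135 peaks lay on genes listed at 0 in all 6 RNA-seq libraries. A coding-gene peak of the same list on the opposite strand was faced by 89 and 74. The RNA-seq was of captured mRNA, so a level of 0 FPKM need not hold for the total RNA of the acRIP-seq. No group here has 4 or more libraries, so single libraries were not examined for standing apart.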

How the results depend on the processing

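Of 663 planned recalculations for single named hosts, 32 lost an adjusted p under 0.05, 23 gained it in the same direction, and 608 did neither. Among those under 0.05 in the main fit 0 reversed direction. Direction was not checked for the others, and the limit on fold change did not enter. Of 102 chosen after seeing the data, 96 neither lost nor gained an adjusted p under 0.05. Hosts called lower and higher (8 and 12) became 14 and 22 with the filter at 0.1 FPKM, 5 and 4 with a pseudocount of 1, and 8 and 20 as TPM; at the adjusted p alone (49 and 71) they became 15 and 31 without a filter. All 20 called hosts were kept as TPM, after quantile normalization and at 0.1 FPKM, and 9 with a pseudocount of 1. Without each replicate in turn the called ranged from 8 to 11 lower and from 11 to 16 higher, and at the adjusted p alone from 27 to 79 and from 39 to 82. Same-numbered libraries did not deviate together (correlations -0.043, 0.064 and 0.11), so the numbers do not pair them; the replicate block gave 9 lower and 12 higher, 49 and 62 at the adjusted p alone, and 17 and 19 with the filter at 0.1 FPKM. The number of peaks (799 shCtrl, 718 shNAT10), their median fold enrichment (46.8, 42.8) and their overlap (22.3%, 25.1%) moved with the choice of peaks. Hosts of at least 1 FPKM gave 432 and 376 peaks at medians of 33.6 and 31.3; the 50% most enriched peaks 394 and 354, at 299 and 308, overlapping in 12.4% and 14.1%; the 50% with the lowest p 282 and 226, at 322 and 373, overlapping in 12.8% and 15.9%; leaving out pseudogenes 513 and 449, at 79.3 and 80.3, overlapping in 18.9% and 21.8%; and leaving out coding exons on either strand and copied sequence 351 and 336, at 144 and 163.5, overlapping in 14.8% and 16.1%. A reciprocal overlap of 50% gave 14.3% and 15.6%, and any peak on the gene in the other list 43.9% and 47.6%. The difference in overlap from coding-gene peaks (-3.32 and -2.32 points) no longer excluded 0 in the shCtrl list at 1 FPKM (-1.04), among the most enriched peaks (-3.21) and for peaks of at most 1000 bases (-3.02), and turned to 1.82 with reciprocal overlap; in the shNAT10 list it came to exclude 0 for the lowest p (-5.74), without pseudogenes (-5.56), for any peak on the gene (-31.4), without peaks facing a coding-gene peak (-4.84) and without coding exons and copied sequence (-11.3). With words of 21 bases in place of 31 the share on copied sequence was 28.5% and 29.4% in place of 24.8% and 25.2%. The cause of these shifts was not tested, beyond the smaller or larger sets that each choice makes. The voom fit, the block at 0.1 FPKM, overlapping peaks of a gene counted once, and the sets without facing peaks or without coding exons and copied sequence were chosen after seeing the data. Since each group has 1 pooled list, no difference between lists has a replicate check.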
